A study of Mus musculus with 12 samples.

Results

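Striatal projection neurons, also called medium spiny neurons, are the GABA-releasing output cells of the striatum, the dopamine-receiving nucleus that lies under the cortex. One class carries the dopamine receptor Drd1 and the peptide precursor Tac1, the other carries Drd2, the adenosine receptor Adora2a and the enkephalin precursor Penk, and both classes hold Ppp1r1b (DARPP-32), Rgs9 and Pde10a, which relay and end dopamine signals through cyclic AMP. These genes are known for their far higher level in striatum than in cortex, so in cortical tissue their signals are low beside those of a striatal sample.

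The set described here holds 9 such genes, namely Drd1, Drd2, Adora2a, Penk, Tac1, Ppp1r1b, Rgs9, Pde10a and Lrrc10b. Its members are every non-control probe of the array that carries 1 of these gene names, which gave 14 of 43020 probes. After spots with an optical mark or too close to the local background in any mouse were left out, 11 of the 14 probes remained and all 9 genes could be measured, among 17302 genes in all. Lrrc10b, a gene for a leucine-rich repeat protein, was chosen by its measured signal, which was much lower in MRL/lpr than in the other groups, so its values below are a description with no test. The other 8 genes were chosen as markers of the cell type and were tested.

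RNA from the cortex of 12 mice was read on 2-colour arrays, 4 mice a group. MRL/lpr mice carry the lpr loss-of-function change of Fas on the MRL background and develop a lupus-like disease, Fn14ko mice carry the same lpr change and also lack Fn14, the receptor of the cytokine TWEAK, and MRL/+ (MRL/MpJ) mice carry neither change. All were females of about 12 weeks. The MRL/lpr and Fn14ko mice were littermates from one colony, and the MRL/+ mice were bought from a different supplier. The Fn14 deletion is not limited to a cell type.

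Both mice hybridised to an array came from a single group, with replicates 1 and 3 labelled in the dye Cy3 and replicates 2 and 4 in Cy5. Each group lay on 1 slide of its own, and in every comparison below the slide cannot be told apart from the group. The share of spots well above background was between 56.6% and 70.0% in the MRL/lpr and Fn14ko mice, and 67.6%, 35%, 63% and 21.2% in MRL/+ replicates 1 to 4. All values are signals, that is the background-corrected brightness divided by the median retained spot of the same mouse, so that 1 is the brightness of a typical spot. The signal of negative control spots, which match no transcript, was 0.0483 to 0.144 in MRL/lpr, 0.046 to 0.235 in Fn14ko and 0.338, 0.663, 0.0713 and 0.823 in MRL/+ replicates 1 to 4. For the dim genes of the set, the signal is set against it below.

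The labelled tissue was checked against 15 markers of cortical excitatory neurons, and all 15 were measured. Slc17a7, the vesicular glutamate transporter of cortical neurons, ran from 8.71 to 30.5 in the 12 mice.

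The probes decide what these signals can show, and 3 genes need a word on them. The first 30 bases of each 60-base probe are given, 5′ to 3′, on the mouse build mm9 that the array files name. Gene models of that build were not used here, so exons are not named. Rgs9 has 4 probes, and the pair that was retained overlaps, so it is 1 measurement made in duplicate. The capitals mark the stretch that both share within the letters shown, and over their full length the pair shares 54 bases.
Rgs9, A_55_P1969032 at chr11:109086705-109086734, minus strand: aggcatGTGGGCCAGAAGATATCCCTTGCT
Rgs9, A_55_P2032232 at chr11:109086699-109086728, minus strand: GTGGGCCAGAAGATATCCCTTGCTgcctta
Pde10a has 3 probes, shown because only the first 2 gave a usable signal. The third, which was well above background in 0 of 12 mice, shows what an undetected probe reads on these arrays.
Pde10a, A_51_P419017 at chr17:9174995-9175024, plus strand: gagaaatccaaactgttgattacaggtgca
Pde10a, A_55_P2090484 at chr17:9174477-9174506, plus strand: agcaagagcacacctgagaagctgaacgtg
Pde10a, A_55_P2000379 at chr17:9179394-9179423, plus strand: gtaattatacatataaagtatatatatatg
Lrrc10b rests on a single probe, shown because its decrease put the gene in the set.
Lrrc10b, A_55_P2036417 at chr19:10530609-10530638, minus strand: tatccgtagaatcatccctactctgactct
The other 5 genes with 1 retained probe of 60 bases were read at chr13:54147277-54147336 for Drd1 (minus strand), chr9:49215047-49215106 for Drd2 (plus), chr10:74797461-74797520 for Adora2a (plus), chr4:4060724-4060783 for Penk (minus) and chr6:7512893-7512952 for Tac1 (plus). The probe of Ppp1r1b lies at chr11:98218965-98219024 (plus).

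One mouse stood apart in these genes. Fn14ko replicate 1 had the highest signal of its group for 9 of the 9 genes, and the highest of all 12 mice for 8 of them, the exception being Drd2. Its signal was 3.43 times the mean of the other 3 Fn14ko mice for Drd2, 4.13 times for Lrrc10b and 4.73 times for Pde10a, and 9.54 times for Penk, with a median of 6.62 times. The 8 tested genes were thus all over 2-fold higher in this mouse, against 0.798% of all genes. For all 8 but Drd2 it stood above the other 11 mice, against 2.3% of all genes. Lrrc10b is left out of these counts, since its choice for low MRL/lpr signals bears on which mouse is highest. Here and below, more cells of a type in the piece of tissue and more RNA per cell cannot be told apart.

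Some other genes of the striatum were also high in this mouse. Of the 17 other striatum-enriched genes measured, 9 were over 2-fold higher, with a median of 2.18 times. Among them, picked after its values were seen, the sodium channel subunit Scn4b read 10.8 times the mean of the other 3 mice. Of 21 genes on the way from dopamine receptors to protein kinase A, 4 were over 2-fold higher, and the median was only 1.16 times. The striatal adenylyl cyclase Adcy5, picked after its values were seen as the largest ratio of this list, stood at 4.09 times. Of 9 striatal transcription factors 2 were over 2-fold higher, with a median of 1.86 times, and of 6 other dopamine, adenosine and peptide receptors 2 were, with a median of 1.67 times. The only 2 measured markers of cholinergic interneurons, Chat and Slc18a3, stood at 2.27 and 3.00 times. The background of this mouse was also high, with a negative control signal of 0.235 against 0.213, 0.046 and 0.099 in Fn14ko replicates 2 to 4. The Pde10a probe that was never detected likewise read 0.239 against 0.197, 0.0485 and 0.0758, so the ratio of a dim gene such as Chat (0.590 in this mouse) was close to that of a probe without signal.

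Markers of cortical excitatory neurons did not follow. None of the 15 was over 2-fold higher in Fn14ko replicate 1, their median ratio was 0.862, and their summed signal was 61.6 against 73.6 or more in the other 3 Fn14ko mice. None of 11 GABA interneuron, 6 thalamic, 4 hippocampal, 8 choroid plexus, 6 ependymal, 8 astrocyte, 8 oligodendrocyte or 8 microglial markers was over 2-fold higher either. The median ratio of these lists ran from 0.786 for ependyma to 1.33 for oligodendrocytes. The part of dissection in the values of this mouse was not tested.

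**Figure D1:**
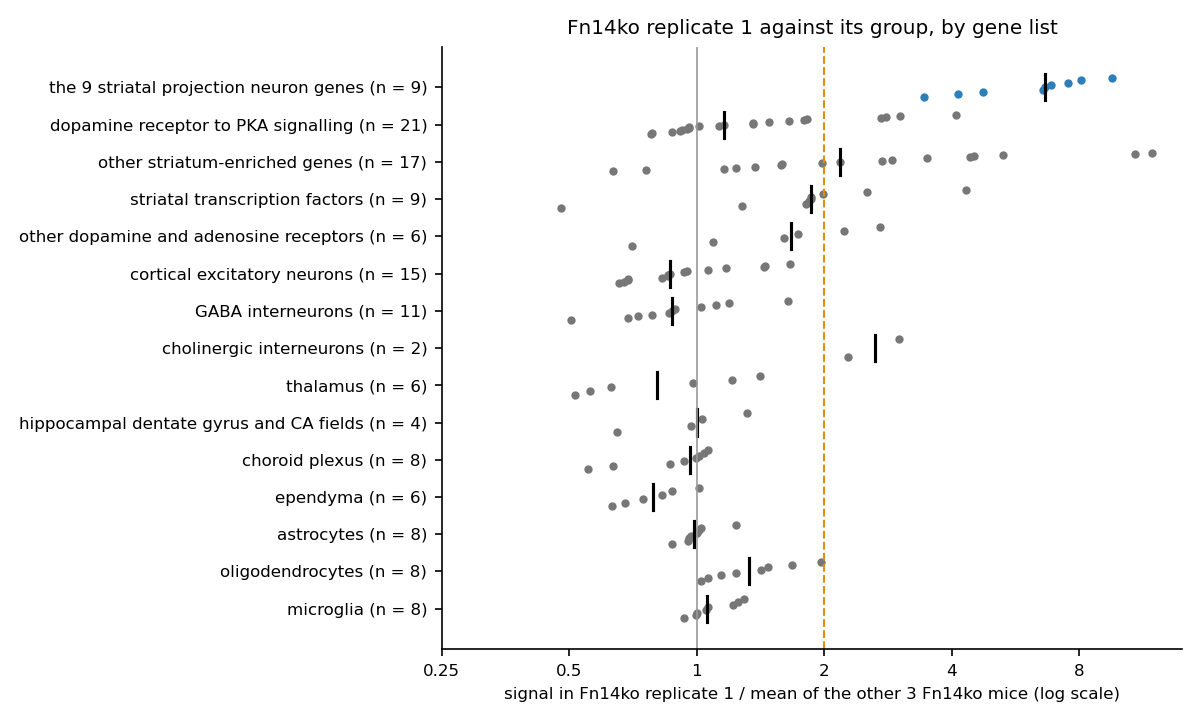
Signal of each gene in Fn14ko replicate 1 divided by the mean of the other 3 Fn14ko mice (horizontal log axis), by gene list. Points are genes, black bars list medians, the grey line equal signal and the dashed line 2-fold. The 9 striatal projection neuron genes (blue) all lie right of the dashed line, with a median of 6.62, while the 15 cortical excitatory markers lie left of it.

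The receptors came first by mouse. Drd1, the receptor that raises cyclic AMP, gave 0.286, 0.299, 0.504 and 0.273 in MRL/lpr replicates 1 to 4. In Fn14ko replicates 1 to 4 it gave 1.70, 0.305, 0.176 and 0.149, and in MRL/+ replicates 1 to 4 it gave 0.430, 0.722, 0.244 and 0.570. All 3 groups overlapped, and Fn14ko held both the highest and the lowest mouse. Against MRL/+, the log2 fold change of MRL/lpr was -0.47 ± 0.74 (SE, 95% interval -2.08 to 1.14, limma adjusted p = 0.666) and that of Fn14ko -0.42 ± 0.74 (0.723). In MRL/+ the signal was 1.27, 1.09, 3.42 and 0.693 times that of the negative control spots, so that only MRL/+ replicate 3 read Drd1 clearly above them.

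Drd2, the receptor that lowers cyclic AMP, gave 0.0881, 0.195, 0.0952 and 0.211 in MRL/lpr. It gave 0.777, 0.382, 0.102 and 0.195 in Fn14ko and 0.386, 0.901, 0.160 and 1.27 in MRL/+. The MRL/lpr mice were the low group, but MRL/lpr replicates 2 and 4 lay above MRL/+ replicate 3, so the groups overlapped. The log2 fold change in MRL/lpr against MRL/+ was -1.92 ± 0.72 (95% interval -3.48 to -0.36), with a limma adjusted p of 0.0872 and an exact permutation p of 0.0857 (2-sided, n = 4 each, smallest possible p 0.0286). Drd2 was the dimmest gene of the set against its background, under 2 times the negative control level in 9 of 12 mice, with 1.14, 1.36, 2.24 and 1.54 times in MRL/+ replicates 1 to 4. The Drd2 signals of both groups thus lay close to the background of each mouse.

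Adora2a, the adenosine receptor of the Drd2 class, gave 0.379, 0.590, 0.706 and 0.538 in MRL/lpr. It gave 3.92, 1.03, 0.318 and 0.371 in Fn14ko and 0.518, 1.11, 0.194 and 0.501 in MRL/+. The MRL/lpr mice lay inside the range of MRL/+, and the log2 fold change was 0.15 ± 0.78 (limma adjusted p = 0.901). In MRL/+ replicates 1 to 4 it stood at 1.53, 1.67, 2.72 and 0.609 times the negative control level. Replicates 1 and 2 of Fn14ko, which shared an array, were its 2 highest mice, as for all 9 genes of the set.

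The peptide precursors differed more between mice than between groups. Penk, the enkephalin precursor, gave 5.42, 6.15, 19.2 and 8.57 in MRL/lpr. It gave 60.2, 8.41, 5.33 and 5.22 in Fn14ko and 4.20, 8.80, 4.21 and 2.28 in MRL/+. MRL/lpr replicate 3 and Fn14ko replicate 1 stood above the rest, and the groups overlapped. Against MRL/+, the log2 difference was 0.99 ± 0.79 for MRL/lpr (limma adjusted p = 0.369) and 1.33 ± 0.79 for Fn14ko (0.301).

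Tac1, the precursor of substance P, gave 1.30, 1.17, 1.66 and 1.08 in MRL/lpr. It gave 9.26, 1.69, 1.23 and 1.30 in Fn14ko and 1.30, 1.15, 1.06 and 0.480 in MRL/+. Apart from Fn14ko replicate 1 and the low MRL/+ replicate 4, the other 10 mice lay within 1.06 to 1.69. MRL/+ replicate 4 lay under its negative control level, at 0.583 times it, and replicates 1 to 3 at 3.85, 1.73 and 14.9 times. With MRL/+ as the base, the log2 difference was 0.46 ± 0.56 for MRL/lpr (limma adjusted p = 0.56) and 1.26 ± 0.56 for Fn14ko (0.215).

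The signalling proteins inside the cell included the only tested members whose groups did not overlap. Ppp1r1b, the phosphatase inhibitor that integrates dopamine signals, gave 11.5, 6.49, 14.0 and 6.21 in MRL/lpr. It gave 61.8, 11.5, 7.21 and 5.87 in Fn14ko and 5.36, 4.23, 5.83 and 3.24 in MRL/+. Every mouse with the lpr change lay above every MRL/+ mouse. Its difference on the log2 scale, MRL/lpr minus MRL/+, was 0.98 ± 0.54 (95% interval -0.19 to 2.16), with a limma adjusted p of 0.207 and an exact permutation p of 0.0286, the smallest that 4 against 4 mice allow. In Fn14ko against MRL/+ it was 1.54 ± 0.54 (limma adjusted p = 0.155, exact permutation p = 0.0286). This order rested on how the background was removed. With Agilent's own processed signal, MRL/+ replicates 1 to 4 read 12.6, 27.0, 9.98 and 24.5, MRL/lpr replicates 16.8, 11.8, 22.1 and 11.3, and the log2 fold change in MRL/lpr against MRL/+ turned to -0.19.

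Rgs9, which speeds the end of G protein signals in striatal neurons, gave 2.21, 2.60, 3.11 and 2.30 in MRL/lpr. It gave 18.6, 4.40, 1.94 and 2.06 in Fn14ko and 1.62, 2.30, 1.33 and 1.34 in MRL/+. MRL/+ was the low group with an overlap at MRL/+ replicate 2, and the log2 fold change over it was 0.66 ± 0.61 for MRL/lpr (limma adjusted p = 0.443) and 1.40 ± 0.61 for Fn14ko (0.211). The overlapping probes gave 0.51 ± 0.61 and 0.79 ± 0.61 in MRL/lpr against MRL/+. Of the other 2 probes, A_55_P1969027 was well above background in 6 of 12 mice, replicates 1 and 3 of each group being those read in Cy3, and A_66_P140185 in 1 Fn14ko and 1 MRL/+ mouse, and neither entered the gene's value.

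Pde10a, the phosphodiesterase that breaks down cyclic nucleotides in both classes of neuron, gave 0.298, 0.303, 0.225 and 0.258 in MRL/lpr. It gave 1.90, 0.513, 0.291 and 0.398 in Fn14ko and 0.603, 0.732, 0.577 and 0.759 in MRL/+. Every MRL/lpr mouse lay below every MRL/+ mouse. The log2 fold change was -1.30 ± 0.52 (95% interval -2.42 to -0.18), with a limma adjusted p of 0.101 and an exact permutation p of 0.0286. The probes A_51_P419017 and A_55_P2090484 gave -1.12 ± 0.52 and -1.58 ± 0.53. The undetected probe A_55_P2000379 read 0.0561, 0.144, 0.0564 and 0.139 in MRL/lpr and 0.338, 0.613, 0.0706 and 0.652 in MRL/+, so a probe without signal was also higher in 3 of the 4 MRL/+ mice than in every MRL/lpr mouse. Pde10a stood 1.78, 1.10, 8.09 and 0.922 times above the negative control level in MRL/+ replicates 1 to 4, and with that level subtracted from every mouse its log2 fold change turned to 0.80.

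**Figure D2:**
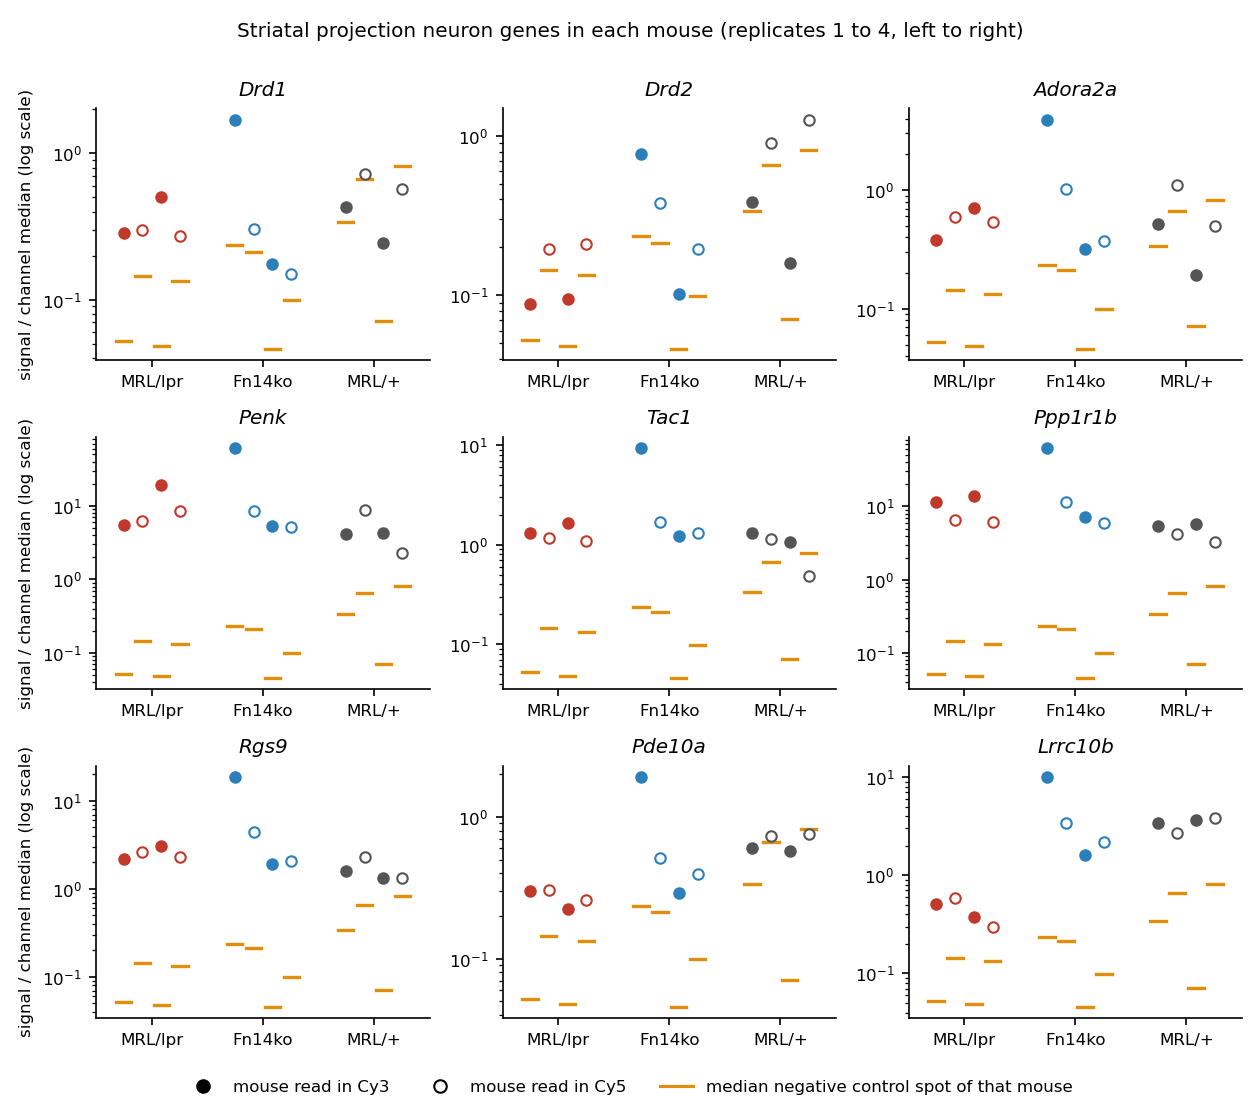
Signal of each of the 9 genes in each mouse (vertical log axis, 1 being a typical spot), by group, with replicates 1 to 4 from left to right. Filled points were read in Cy3, open points in Cy5, and the orange dashes are the median negative control spot of the same mouse. Fn14ko replicate 1 is the highest point in 8 of 9 panels, and in MRL/+ the points of Drd1, Drd2 and Pde10a lie near the dashes.

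Over the 8 tested genes, no comparison passed the threshold for any of them, 0 of 8 by limma at an adjusted p under 0.05. In MRL/lpr against MRL/+ 14.4% of all genes passed, in Fn14ko against MRL/+ 0.954% and in MRL/lpr against Fn14ko 4.57%. At an unadjusted p under 0.05 the counts were 2, 3 and 0 of 8, where 34.7%, 21.9% and 18.6% of all genes passed. Groups did not overlap for 2 of 8 genes in MRL/lpr against MRL/+ (23.9% of all genes), for 1 of 8 in Fn14ko against MRL/+ (13.5%) and for 0 of 8 in MRL/lpr against Fn14ko (20.3%). The median log2 fold change of the 8 genes was 0.31, 1.02 and -0.68 in the 3 comparisons, where all genes had -0.10, -0.10 and -0.07. The median SE of the 8 genes was 0.67 against 0.25 over all genes, so these tests could see only large differences.

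Without Fn14ko replicate 1, which enters the shared estimate of the spread, 3 of the 8 genes passed in MRL/lpr against MRL/+ (20.2% of all genes then passed). Ppp1r1b was higher (limma adjusted p = 0.0392), and Drd2 (0.0134) and Pde10a (0.0025) were lower, with unchanged fold changes. The limits given above hold for these genes too. Drd2 and Pde10a lay under 2 times the negative control level in MRL/+ replicates 1, 2 and 4. With all mice, the fold change of Ppp1r1b turned sign with Agilent's processed signal, and that of Pde10a with the negative control level subtracted. By limma at 0.05, 0 of the 8 passed in Fn14ko against MRL/+ and in MRL/lpr against Fn14ko without that mouse (5 and 1 at an unadjusted p under 0.05), where 5.01% and 3.9% of all genes did. Their medians in these comparisons were then 0.27 and -0.02.

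**Figure D3:**
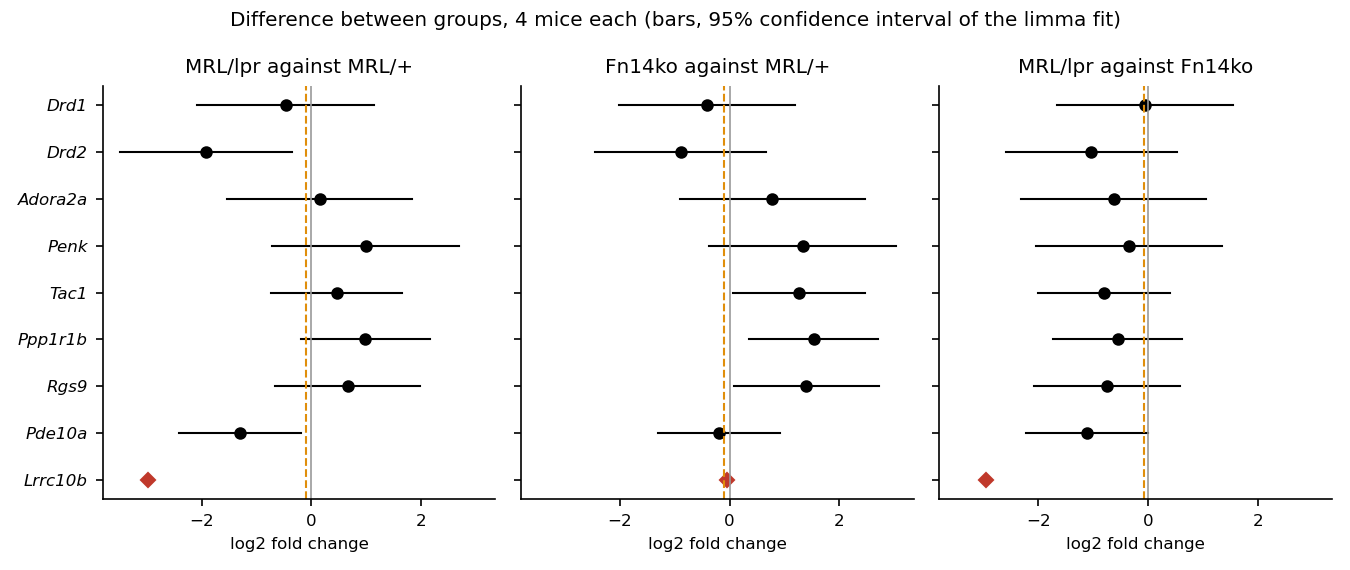
Log2 fold change (horizontal axis) of each gene in the 3 comparisons, 4 mice a group, with the 95% confidence interval of the limma fit as bars. The dashed line is the median of all genes, and Lrrc10b (diamond), chosen for its decrease, is drawn with no interval. Drd2 and Pde10a lie left of 0 and Ppp1r1b and Penk right of it in MRL/lpr against MRL/+, and none of the 8 tested genes passed the threshold.

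The other genes of the pathway and of the striatum were taken as lists. Of 21 measured genes from dopamine receptors to protein kinase A, 4 passed with a higher signal in MRL/lpr against MRL/+ (6.03% of all genes did) and 0 with a lower one (8.37%), and the list median was 0.43. Without Fn14ko replicate 1 the counts were 7 and 0, where 20.2% of all genes passed in either direction. The 4 genes that passed with all mice were Arpp21, Prkacb, Rgs4 and Prkar2b. Arpp21 is a cyclic AMP-regulated phosphoprotein (log2 fold change 1.87 ± 0.47, limma adjusted p = 0.0205). Prkacb is a catalytic subunit of protein kinase A (1.34 ± 0.35, 0.0257). Rgs4 is a brake on G protein signals (1.19 ± 0.25, 0.00949). Prkar2b is a regulatory subunit of the kinase (0.87 ± 0.22, 0.0190). Arpp21 read 8.85, 9.78, 9.64 and 9.35 in MRL/lpr against 1.71, 2.40, 2.87 and 3.76 in MRL/+, without overlap. Prkacb read 17.7 to 21.9 in MRL/lpr and 9.76, 7.34, 13.7 and 3.53 in MRL/+ replicates 1 to 4. It was lowest in MRL/+ replicates 2 and 4, which had only 35% and 21.2% of spots well above background.

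Of 17 other striatum-enriched genes measured, 2 passed as higher and 3 as lower in the same comparison, where 6.03% and 8.37% of all genes did. Itpr1, a calcium release channel (1.59 ± 0.36, limma adjusted p = 0.0132), and the calcium-dependent kinase Camk4 (1.23 ± 0.20, 0.00253) were higher. Itpr1 read 15.4 to 18.6 in MRL/lpr and 9.01, 3.77, 11.2 and 2.65 in MRL/+ replicates 1 to 4. Its lowest mice, MRL/+ replicates 2 and 4, had only 35% and 21.2% of spots well above background. Dlx5, a homeobox factor of GABA neurons (-1.26 ± 0.35, 0.0300), and the potassium channel subunit Kcnab1 (-1.01 ± 0.22, 0.0112) were among those lower. Dlx5 read 0.496, 0.802, 0.361 and 0.738 in MRL/+, where the negative control spots read 0.338, 0.663, 0.0713 and 0.823, so 3 of these 4 signals lay close to or under background. Without Fn14ko replicate 1 the counts of this list were 6 higher and 5 lower, where 20.2% of all genes passed in either direction.

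Of 9 striatal transcription factors 1 passed as higher and 1 as lower in MRL/lpr against MRL/+, where 6.03% and 8.37% of all genes did. Nr4a1, an activity-induced nuclear receptor, was higher (1.56 ± 0.47, limma adjusted p = 0.0439). Bcl11b (Ctip2), a factor of striatal and deep-layer cortical neurons, was lower (-1.37 ± 0.23, 0.00291). Bcl11b read 2.51, 2.47, 3.99 and 2.40 in MRL/lpr, and between 5.72 and 8.82 in the 8 mice of the other groups. It was also lower in MRL/lpr than in Fn14ko (-1.30 ± 0.23, 0.00657), as was Kcnab1 (-1.50 ± 0.22, 0.0023). These were 1 of 9 and 1 of 17 measured genes of their lists, where 4.57% of all genes passed. Of 6 other dopamine, adenosine and peptide receptors 0 passed by limma in MRL/lpr against MRL/+ (2 at an unadjusted p under 0.05), with a median of -0.65. Without Fn14ko replicate 1, 2 of them passed as lower, where 20.2% of all genes passed in either direction. In Fn14ko against MRL/+ 0 genes of these 4 lists passed by limma at 0.05, where 0.954% of all genes passed. At an unadjusted p under 0.05 the counts were 5, 5, 1 and 1, where 21.9% of all genes passed. Without Fn14ko replicate 1, 1 striatum-enriched gene and 1 of the other receptors passed as lower there, where 5.01% of all genes passed in either direction.

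Some markers of other cell types also passed in MRL/lpr against MRL/+. Of all genes, 6.03% passed as higher and 8.37% as lower there. Of 4 hippocampal markers measured 3 were lower, of 6 ependymal markers 3 were lower, and of 8 choroid plexus markers 1 was lower. Of 15 cortical excitatory markers 4 were higher and 4 lower, of 11 GABA interneuron markers 3 were higher and 1 lower, and of 6 thalamic markers 1, Prkcd, was lower (-2.06 ± 0.28, limma adjusted p = 0.00102). Of 8 oligodendrocyte markers 2 were lower, among them Mbp (-1.63 ± 0.35, 0.0110), of 8 microglial markers 1, Aif1, was higher (1.17 ± 0.31, 0.0271), and 0 of 8 astrocyte and 0 of 2 cholinergic markers passed (2 and 0 at an unadjusted p under 0.05). A count of 1 among 6 or 8 markers is near the share of all genes. The part of these cell types in the values of the striatal genes was not tested.

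**Figure D4:**
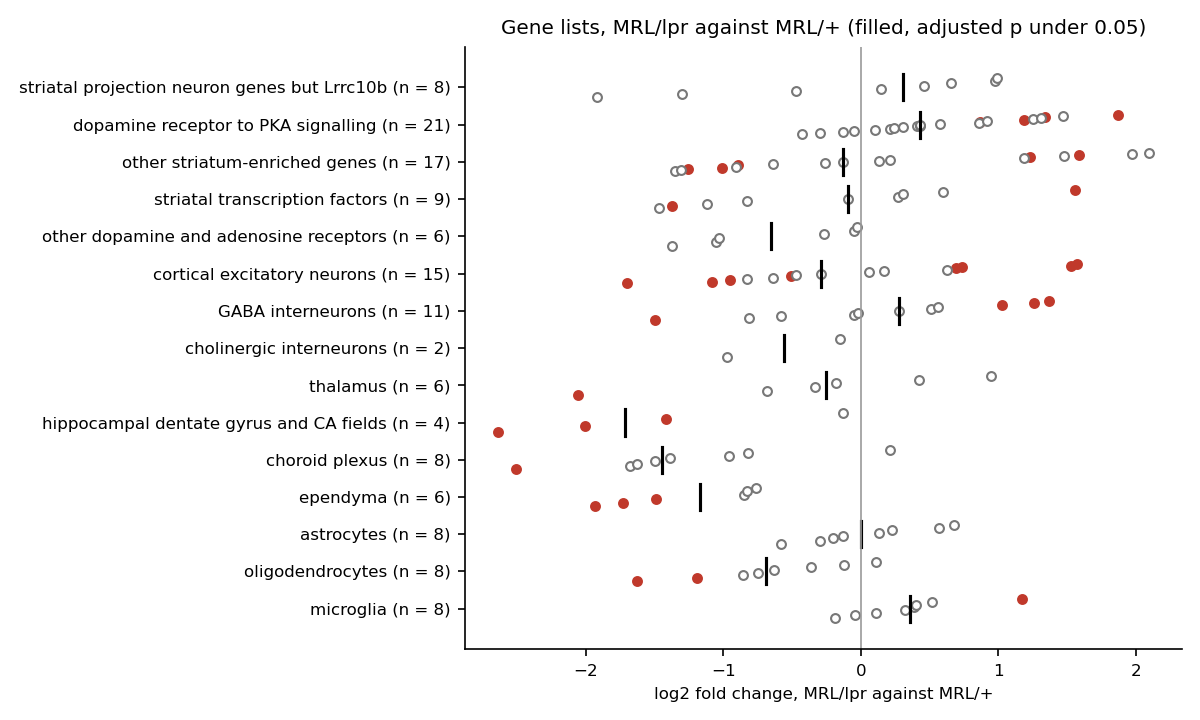
Log2 fold change in MRL/lpr against MRL/+ (horizontal axis) of each measured gene by list, filled where the limma adjusted p was under 0.05, with black bars for list medians. None of the 8 tested striatal projection neuron genes is filled, and 3 of 4 hippocampal and 3 of 6 ependymal markers are filled on the left.

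Lrrc10b was the gene chosen for its decrease in MRL/lpr. It gave 0.507, 0.591, 0.373 and 0.3 in MRL/lpr. It gave 9.94, 3.43, 1.61 and 2.17 in Fn14ko and 3.44, 2.72, 3.66 and 3.84 in MRL/+. All 4 MRL/lpr mice lay below all 8 mice of the other groups, and the probe was well above background in all 12 mice. The mean was 0.443 ± 0.131 (SD, n = 4) in MRL/lpr, 4.29 ± 3.84 (n = 4) in Fn14ko and 3.41 ± 0.493 (n = 4) in MRL/+. On the log2 scale MRL/lpr stood at -2.98 from MRL/+, rank 2 from the lowest among 17302 genes, and at -2.95 from Fn14ko, while Fn14ko stood at -0.04 from MRL/+. These values chose the gene and support nothing further.

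In MRL/lpr the signal of Lrrc10b stood 9.68, 4.10, 7.72 and 2.24 times above the negative control level of replicates 1 to 4, against 4.10 to 51.3 times in MRL/+. In MRL/+ replicates 2 and 4, where Drd1 and Pde10a lay at about the negative control level, it stood 4.10 and 4.67 times above it. Of the other 8 genes, 5 had a log2 fold change above 0 and 3 below 0 in MRL/lpr against MRL/+.

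Likeness to the other members was measured over the 12 mice as the root mean square difference of log2 signals. Before this, each gene was centred on its own mean within each dye. The 8 tested genes differed by 0.32 (Adora2a) to 0.87 (Drd2) from their mean pattern. Lrrc10b differed by 1.34 from it, a value that its choice for a decrease bears on. Across all other genes, the 5 nearest to the mean pattern of the 8 were Gpr6, an orphan receptor of the Drd2 class (0.33), Rarb, a retinoic acid receptor (0.35), Htr1b, a serotonin receptor (0.41), Pbx3, a homeobox factor (0.48), and Asic4, an acid-sensing channel family member (0.48), where the pattern itself had a root mean square of 0.82. Gpr6 and Rarb also stand on the lists of striatal genes above. In all 5, as in the 8 genes but Drd2, Fn14ko replicate 1 was the highest of 12 mice. This follows from the way these 5 were picked and is no result.

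The 5 genes nearest to Lrrc10b were others. They were Olfml2b, an olfactomedin-like gene (0.60), Klk8, the protease neuropsin (0.61), C1ql2, a synaptic C1q-like protein of dentate gyrus neurons (0.62), Rem2, a small GTP-binding protein (0.63), and Serpina3n, a protease inhibitor (0.64), where Lrrc10b itself had 1.53. C1ql2 read 0.173, 0.218, 0.178 and 0.225 in MRL/lpr, 1.03, 1.00, 0.715 and 0.650 in Fn14ko and 1.32, 1.21, 1.22 and 1.18 in MRL/+. Serpina3n read 1.11 to 1.34 in MRL/lpr and 4.67 to 11.1 in the 8 other mice. Low signals in MRL/lpr follow from the way these 5 were picked and are no result. Fn14ko replicate 1 was the highest mouse in none of the 5.

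C1ql2 is also 1 of the 7 hippocampal markers, of which 4 were measured. C1ql2 (-2.64 ± 0.21, limma adjusted p = 6.8e-05), Lct (-2.01 ± 0.52, 0.0243) and Zbtb20 (-1.42 ± 0.34, 0.0180) passed as lower in MRL/lpr against MRL/+, and the remaining one, Wfs1, gave -0.13 ± 0.27. The summed signal of the 4 ran from 16.1 to 22.5 in MRL/lpr, 19.7 to 26.4 in Fn14ko and 19.3 to 30.8 in MRL/+. The other 3 hippocampal markers of the list were too dim to be measured. The ependymal marker Foxj1, the master factor of motile cilia, was lower as well (-1.73 ± 0.27, 0.0018), and the summed ependymal signal ran from 2.95 to 5.27 in MRL/lpr and from 5.70 to 10.8 in the other 8 mice. The part of tissue other than cortex in the signal of Lrrc10b was not tested.

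The genes around Lrrc10b on chromosome 19, looked up after its values were seen, did not share its difference. Syt7, the nearest at 5.65 kb, had a log2 fold change of 0.02 in MRL/lpr against MRL/+, and Ppp1r32 at 18.8 kb had -0.72. Over the 26 measured genes within 500 kb, the range was -1.64 (Tmem138) to 2.00 (Cd6, a surface receptor of T cells).

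**Figure D5:**
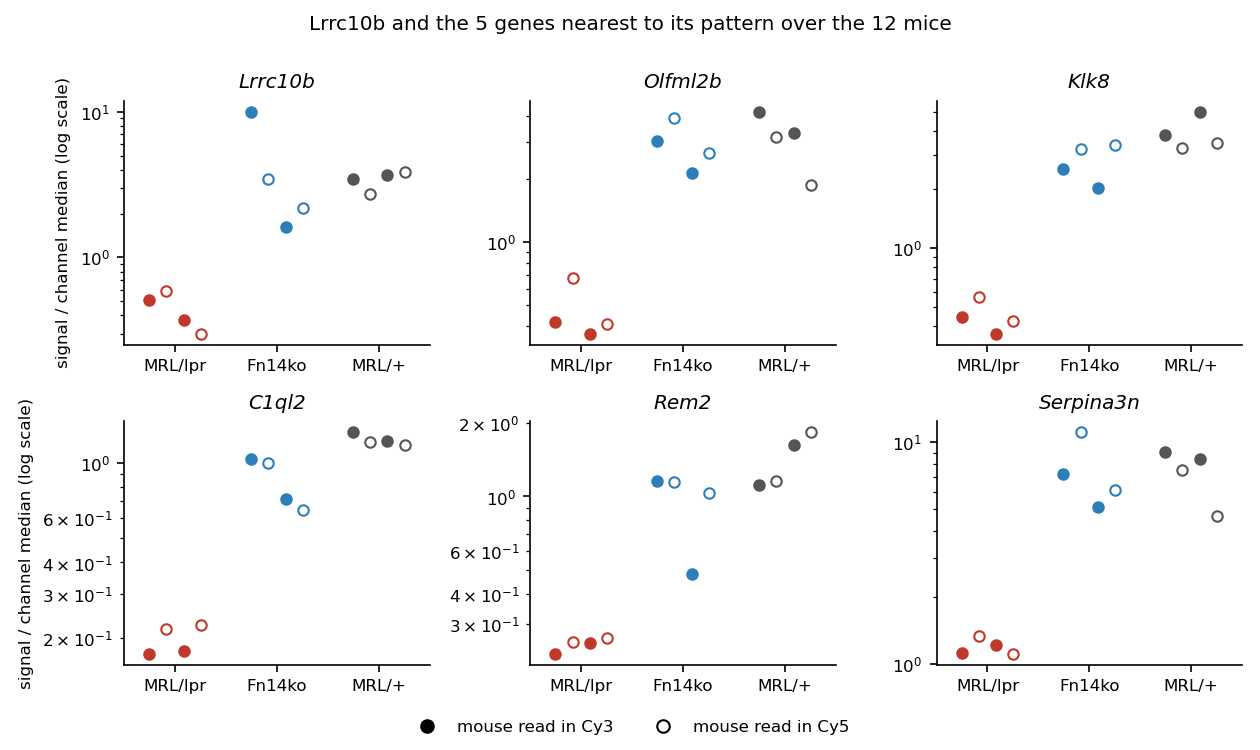
Signal of Lrrc10b and of the 5 genes nearest to its pattern in each mouse (vertical log axis, 1 being a typical spot), by group, with replicates 1 to 4 from left to right, filled for Cy3 and open for Cy5. In all 6 panels the 4 MRL/lpr mice lie below the 8 others, and Fn14ko replicate 1 is the highest mouse only for Lrrc10b.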

How the data were processed

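The authors deposited 1 scanner file per array, with intensity values per spot and channel, made by Agilent Feature Extraction (version 12.1.0.3 and probe positions on mm9 per the file headers). Mean spot and median local background intensity were used here, and the marks for uneven, outlier, saturated and well-above-background spots that the authors' files hold. Agilent's processed signal and the other settings named in the closing section were alternatives. The background was removed by normexp (offset 50) in limma 3.58.1 on R 4.3.3. Spots with a mark (1952), or with a foreground under 2 times the background in any mouse (17781), were left out, as the study's methods ask, which left 24255 spots. Each channel was divided by its median retained spot, spots of a gene were averaged, and log2 values were fitted with group and dye terms, array as a random block (correlation 0.316) and a trended variance over all 12 mice. P-values were Benjamini-Hochberg adjusted over 17302 genes at a threshold of 0.05. Single genes also got a 2-sided exact permutation test over mice.

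On simulated data for MRL/lpr against MRL/+ with 17302 genes, 34 of 100 genes changed by 1 on the log2 scale and 72 of 100 changed by 2 were called, and 6 unchanged genes. The changed genes were drawn from all genes, whose median SE was 0.25 against 0.67 for the 8 tested genes. Fewer genes were changed than the 2492 that passed in the real comparison. These rates therefore do not describe the 8 tested genes. The number of mice limits the precision, and with intensities the depth of reads does not apply. Members and gene lists were chosen with earlier results of these data known. Named genes are the 9 members, up to 4 genes of each pathway list past the threshold in MRL/lpr against MRL/+ and up to 2 in each other comparison by size of change, the first measured markers of each cell type, and the 5 genes nearest in pattern to the members and to Lrrc10b. Exceptions are named where they occur. The values of figures were drawn with matplotlib from the same tables.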

Additional observations from a re-analysis of the deposited data

Results flagged for a closer look

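In each group of 4 mice the gap between the highest or lowest mouse and its neighbour was divided by the range of the group, and a share above Dixon's critical value set a mouse apart. Of 27 groups of values, 9 genes in 3 groups, 7 held such a mouse, where chance gives about 1 in 20 for normally distributed values. The signals were taken on the linear scale, and whether that rate holds for them was not tested. Fn14ko replicate 1 was the highest mouse in 6 of them. The share was 0.899 for Drd1, 0.899 for Ppp1r1b, 0.852 for Rgs9, 0.942 for Penk, 0.943 for Tac1 and 0.862 for Pde10a. These 6 come from the same mouse and array and are not independent of each other. The remaining one was Drd1 in MRL/lpr, where replicate 3 was the highest mouse (0.887).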

How the results depend on the processing

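Lrrc10b kept its direction in MRL/lpr against both other groups under every alternative run. Its choice for a large decrease in these same data bears on that, so it is no support. No tested gene passed in MRL/lpr against Fn14ko under any alternative. In MRL/lpr against MRL/+ the count of tested genes passing, 0 of 8 as reported, became 1 with plain background subtraction (Drd2), 2 with no array block and 3 with only the groups compared in the fit. Replicate numbers name no shared animal, litter or day and run with the dye. With the replicate block 2 genes passed there (Drd2 and Pde10a), and 0 in the other comparisons. The methods' t-test on linear signals called 1 (Pde10a). Without single mice the count ran from 0 to 3, with 3 without Fn14ko replicate 1 and 1 (Drd2) without MRL/+ replicate 3, and it was 3 without the array of Fn14ko replicates 1 and 2. With the negative control level subtracted, an alternative chosen after seeing the data that puts 4 genes of MRL/+ replicate 4 at a floor of 0.01, the count was 2, and 5 in Fn14ko against MRL/+.

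The following log2 fold changes turned sign, and the cause was not tested. In MRL/lpr against MRL/+, Agilent's processed signal gave 0.42 for Drd1, -0.19 for Ppp1r1b and -0.25 for Tac1. Adora2a gave -0.08 with the 75th percentile and -0.07 in the methods' t-test. Drd1 gave 0.23 with Cy3 mice only, 0.13 with dim spots kept, 0.07 with loess and quantile scaling and 0.47 without both Cy5 mice of MRL/+. Subtracting the negative control level gave 1.98 for Drd1 and 0.80 for Pde10a. Adora2a gave -0.49 without the array of MRL/+ replicates 3 and 4 and -0.04 without that of MRL/lpr replicates 3 and 4.

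In Fn14ko against MRL/+, Drd1 gave 0.30 with the processed signal, 0.76 with Cy3 mice only, 0.31 with dim spots kept, 0.24 with loess, 1.63 with the negative control level subtracted, 0.24 in the methods' t-test, 0.52 without both Cy5 mice of MRL/+ and 0.66 without the array of Fn14ko replicates 3 and 4. Pde10a gave 0.33 with Cy3 mice only, 0.31 with dim spots kept, 0.14 with loess, 2.15 with the negative control level subtracted, 0.21 in the methods' t-test, 0.13 without both Cy5 mice of MRL/+ and 0.57 without that Fn14ko array. Drd2 gave 0.18 with Cy3 mice only, 0.03 with the negative control level subtracted and 0.08 without that array. Adora2a gave -0.50 without the array of Fn14ko replicates 1 and 2.

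In MRL/lpr against Fn14ko, leaving out the array of Fn14ko replicates 1 and 2 gave 0.65 for Adora2a, 1.02 for Drd1, 0.71 for Penk, 0.46 for Ppp1r1b, 0.34 for Rgs9 and 0.02 for Tac1. Drd1 gave 0.11 with the processed signal, 0.01 with background subtraction, 0.01 with the local background capped, 0.35 with the negative control level subtracted and 0.12 without the array of MRL/lpr replicates 1 and 2, where Penk gave 0.24.

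Leaving out single mice gave, where a sign turned, these ranges. In MRL/lpr against MRL/+ Adora2a ran from -0.25 to 0.54. In Fn14ko against MRL/+ Adora2a ran from -0.02 to 1.16, Pde10a from -0.79 to 0.11 and Lrrc10b, reported with no test, from -0.53 to 0.31. In MRL/lpr against Fn14ko Adora2a ran from -0.95 to 0.17, Drd1 from -0.35 to 0.72, Penk from -0.72 to 0.42 and Ppp1r1b from -0.95 to 0.02. The high negative control signal in 3 of the 4 MRL/+ mice limits every comparison of Drd1, Drd2, Adora2a, Tac1 and Pde10a with MRL/+.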
